A study of Mus musculus with 3 samples.

Results

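The genes described here are Maf, which encodes the transcription factor c-Maf, the 3 small Maf genes Maff, Mafg and Mafk, the repressor genes Bach1 and Bach2, and Nfe2l2, which encodes the activator Nrf2. They were chosen by name, with earlier results of these data known. All 7 were measured among the 19938 genes of the arrays, each by 1 probe that matches no other gene. Gene expression was measured in mouse CD4 T cells with 1 Affymetrix array per group, to compare the Th17 and Th22 programs. Th17 cells were cultured with IL-6 and TGFβ, Th22 cells with IL-6 and no TGFβ, and Th0 cells with neither cytokine. All 3 groups began as naive splenic CD4+CD25- T cells, high for CD62L and low for CD44, of OT-II mice of the strain B6.Cg-Tg(TcraTcrb)425Cbn/J. T cells of this strain carry a transgenic receptor for a peptide of ovalbumin, so they stand for the response to 1 antigen. That peptide was presented by splenic cells depleted of T cells from Il23a-/- mice, which cannot supply IL-23. The T cells were collected by magnetic sorting at 60 hours, and the labels do not state the age or number of the animals.

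All of these proteins are basic leucine zipper (bZIP) factors, which bind DNA as pairs. c-Maf is a large Maf protein with an activation domain of its own, and in helper T cells it is known for driving Il10, Il4 and Il21. The small Maf proteins have no activation domain, and they pair with Bach1, Bach2 or Nrf2 on antioxidant response elements, where Nrf2 activates and the Bach proteins repress. Bach1 is released from DNA by haem, Nrf2 is held and marked for degradation by Keap1, and Bach2 restrains effector genes in T cells and B cells.

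In the deposited table each probe is centred on its median of the 3 arrays, so the values carry no absolute level, and base 2 is assumed for their logarithm. Each group has 1 array, so no difference below has a replicate check, no test was run, and p-values are not given. The only repeat measurement is between separate probes of 1 gene. In 999 genes with several probes, 95% of such probe pairs lay within 0.36 log2 for Th17 against Th22, 0.30 log2 for Th22 against Th0 and 0.39 log2 for Th17 against Th0. These limits cover probe error alone and leave out the spread between cultures. The 999 genes were not restricted to those that varied between arrays, so the limits may be too narrow for genes that did. The Th17 array had the widest values, with an SD over probes of 0.277 log2, against 0.125 for Th22 and 0.166 for Th0, and 37.7% of genes were exactly equal on all 3 arrays.

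The labels were set against subset genes. The cytokine genes Il17a and Il17f were higher in Th17 than in Th0, by 4.61 and 6.25 log2, and higher in Th22 than in Th0, by 2.62 and 4.86 log2. Rora was higher in Th17 than in Th0 by 2.99 log2 and higher in Th22 than in Th0 by 1.39 log2. Il23r was also higher in both than in Th0, by 1.87 log2 in Th17 and 4.74 log2 in Th22. Unlike Il17a, Il17f and Rora, it was highest in Th22, with -2.87 log2 (7.33-fold lower) for Th17 minus Th22. The pair of probes shared by Il22 and its near copy Iltifb was highest in Th22, at 3.07 and 3.04 log2 above the probe median. None of 11 myeloid and dendritic cell markers, 8 B cell markers or 8 pan T cell genes differed by 2-fold in any comparison. All 8 pan T cell genes nevertheless had negative differences for Th17 minus Th22 (median -0.28 log2) and positive ones for Th22 minus Th0 (median 0.12 log2). For Th17 minus Th22, Cd3d differed by -0.59 log2, Cd4 by -0.55 log2 and Cd247 by -0.44 log2, outside the limit between probes. Their part in the results below was not tested. Of 5 CD8 and NK cell markers only Cd8b1 did as deposited, 2.20-fold lower in Th17 than in Th22 and 2.61-fold lower in Th17 than in Th0. After quantile normalization Cd8b1 was under 2-fold and Eomes passed it, at -1.08 log2 for Th22 minus Th0 and for Th17 minus Th0. The 1 erythroid marker analysed was equal on all arrays. The part of the Cd8b1 difference in the results below was not tested. Because the values are centred, it cannot be said which of these markers were absent.

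The promoters of the small Maf genes and of Nfe2l2 hold the core of the element that their own proteins bind, and the sites are shown as the matches found among the 7 genes. The RefSeq promoter table (GRCm38.p6, 250 bases before to 50 after each start) held 6 of the 7 genes, all but Maf, with 3 starts for Maff. The core searched was TGACNNNGC, on both strands, and the capitals mark it. Each line runs 5′ to 3′ on the strand that carries the core.
Maff: gggcgtctcaTGACTCTGCcactggaaag
Mafg: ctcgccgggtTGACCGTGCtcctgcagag
Mafk: tccccagtacTGACACCGCttccgggatc
Nfe2l2: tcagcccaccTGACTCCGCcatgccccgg

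The Maff stretch lies at chr15:79346499-79346527 on the + strand, and that of Mafg at chr11:120633751-120633779 on the + strand. The Mafk stretch lies at chr5:139791513-139791541 on the - strand, and that of Nfe2l2 at chr2:75704885-75704913 on the - strand. All 4 cores lie before the start of their gene. For Maff, with 3 starts, this holds for the start whose window held the core. For every gene, a match at any start counted. The core was found in 4 of the 6 members with a promoter in the table and in 14.0% of 27025 genes. Neither Bach1 nor Bach2 had it. The flanking part of a Maf element, TGCTGA, which large and small Maf proteins both contact, was found in Mafk and Bach1 and in 21.7% of genes. The AP-1 core TGANTCA was found in 0 of the 6 and in 8.97% of genes. A match is a run of letters and was not tested as a binding site, and no match says nothing about binding elsewhere.

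Maf was far higher in Th17 cells than in either other culture. Relative to the probe's median it stood at 3.51 log2 in Th17, 0 in Th22 and -0.72 in Th0. The order was therefore Th17, then Th22, then Th0, and each step was larger than the limit between probes. Maf was 11.4-fold (3.51 log2) higher in Th17 than in Th22 and 18.7-fold (4.23 log2) higher in Th17 than in Th0. It was 1.65-fold (0.72 log2) higher in Th22 than in Th0, which is under 2-fold. Most of the distance between Th17 and Th0 thus lay between Th17 and Th22, the pair that differ by TGFβ. Maf ranked 9 of 19938 genes from the highest for Th17 against Th22, 9 for Th17 against Th0 and 213 for Th22 against Th0. In RNA from all the collected T cells together, more cells that express a gene and more RNA per cell cannot be told apart.

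When all columns were brought to 1 spread by quantile normalization, Maf was 7.02-fold higher in Th17 than in Th22 and 11.6-fold higher in Th17 than in Th0. With each column scaled to the same spread it was 7.30-fold and 12.2-fold higher. The direction was the same under both, although scaling whole columns cannot change it. The difference of Th22 from Th0 was 0.73 and 0.74 log2.

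**Figure D1:**
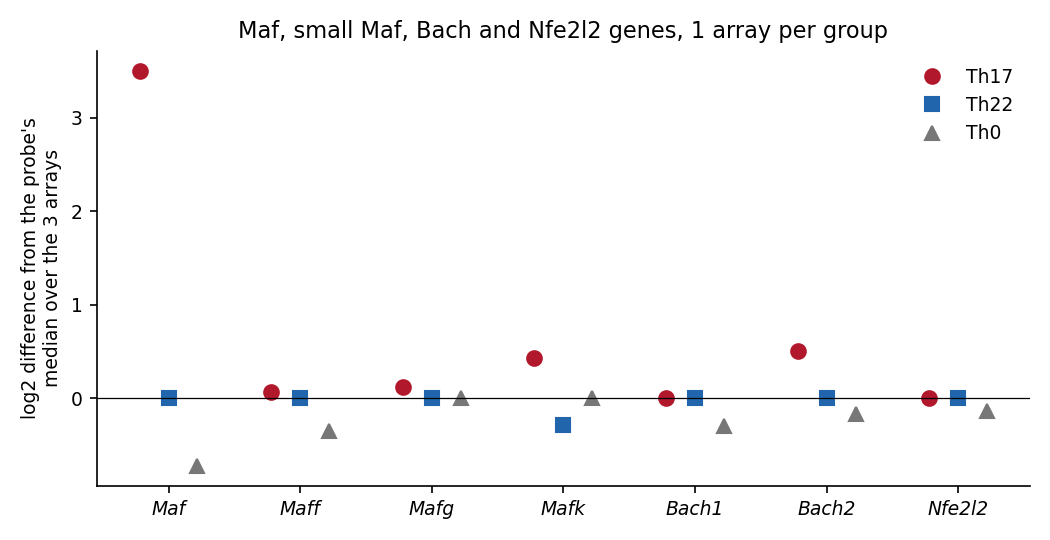
Each point is 1 array. The vertical axis gives the log2 difference from the probe's median over the 3 arrays, for Th17 (circles), Th22 (squares) and Th0 (triangles). Maf in Th17 stands at 3.51, while every other value of the 7 genes lies between -0.72 and 0.51.

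Maf was the only one of the 7 genes past 2-fold. For Th17 against Th22, 1 of 7 was past 2-fold upwards and 0 downwards, where 1.1% of all genes were higher and 1.5% lower. For Th17 against Th0 it was again 1 of 7 higher and 0 lower, where 1.47% of all genes were higher and 1.56% lower. For Th22 against Th0 it was 0 of 7 in either direction, with 0.547% of all genes (109) higher and 0.261% (52) lower. After quantile normalization that background was 150 genes higher and 158 lower. At 1.5-fold, Mafk joined Maf for Th17 against Th22, where 2.12% of genes were that much higher. Bach2 joined Maf for Th17 against Th0 (2.98% of genes), and Maf alone passed for Th22 against Th0 (1.6% of genes). As deposited, none of the 7 was 1.5-fold lower in any comparison, where the share of all genes was 3.37% in Th17 relative to Th22, 0.808% in Th22 relative to Th0 and 3.34% in Th17 relative to Th0. Bach2 was under 1.5-fold with both scalings (1.48-fold and 1.49-fold), and after quantile normalization Mafk in Th22 was lower than in Th0 by 1.71-fold. The median of the 7 genes was 0.12 log2 for Th17 against Th22, 0.16 log2 for Th22 against Th0 and 0.41 log2 for Th17 against Th0, beside medians of 0 over all genes.

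Among the small Maf genes, Mafk differed most, and it had an order of its own. Mafk stood at 0.43 log2 in Th17, -0.28 log2 in Th22 and 0 in Th0, so that Th22, not Th0, was lowest. It was 1.64-fold (0.71 log2) higher in Th17 than in Th22, and 4.17% of all genes lay at least as far from 0. That difference exceeded the limit between probes, as did the 0.43 log2 of Th17 over Th0. Th22 minus Th0 was -0.28 log2 for Mafk, inside the limit. It was the only member of the 7 that crossed 2-fold with a change of scaling. Quantile normalization put Mafk 2.16-fold higher in Th17 than in Th22 and gave -0.78 log2 for Th22 minus Th0, and scaling each column to the same spread gave 1.63-fold and -0.35 log2. For Th17 minus Th0 these scalings gave 0.33 and 0.35 log2, inside the limit that the deposited value exceeded. That limit was not computed again for the scaled values.

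Maff, an inducible small Maf gene, stood at 0.07 log2 in Th17, 0 in Th22 and -0.35 in Th0. Th17 and Th22 differed by 0.07 log2, inside the limit between probes. Both lay above Th0, Th17 by 0.41 log2 and Th22 by 0.35 log2, just outside their limits. Maff thus separated the cytokine-treated cultures from Th0 and did not separate them from each other, by an amount of 1.33-fold and 1.27-fold. Mafg, the third small Maf gene, stood at 0.12 log2 in Th17 and at exactly 0 in Th22 and in Th0. In centred values that tie cannot be told from not detected in Th22 and Th0. The widest difference of Mafg, 0.12 log2, lay inside the limits.

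Of the Bach genes, Bach2 followed the order of Maf at a much smaller size. Bach2 stood at 0.51 log2 in Th17, 0 in Th22 and -0.16 in Th0. It was 1.42-fold (0.51 log2) higher in Th17 than in Th22 and 1.59-fold (0.67 log2) higher in Th17 than in Th0, both outside the limits between probes. Th22 and Th0 differed by 0.16 log2, inside the limit. Of all genes, 6.74% lay at least as far from 0 as Bach2 for Th17 against Th22 and 5.37% for Th17 against Th0. Bach2 is also strongly expressed in B cells, and the part of carried-over presenting cells in its difference was not tested. Of 8 B cell markers 6 were exactly equal on all 3 arrays, among them Cd79a, Cd79b and Pax5, which in centred values cannot be told from not detected. The widest difference in the list was 0.16 log2, in Ms4a1, which was lowest in Th0.

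Bach1, the haem-sensitive repressor gene, stood at 0.01 log2 in Th17, 0 in Th22 and -0.30 in Th0. Th17 and Th22 differed by 0.01 log2, while Th17 lay 0.30 log2 and Th22 0.30 log2 above Th0, both inside the limits between probes. For Th22 this was only just so, at 0.296 log2 beside a limit of 0.300 log2. Quantile normalization gave 0.332 log2 and scaled columns 0.303 log2 for Th22 minus Th0, both past that limit. The limit comes from the deposited values and was not computed again for the scaled ones. Nfe2l2 stood at 0.00165 log2 in Th17, at 0 in Th22 and at -0.14 log2 in Th0. None of its differences passed a limit. For Nfe2l2, 55.0% of all genes differed at least as much between Th17 and Th22. Bach1 and Nfe2l2 therefore each had like values in the cultures given cytokine and slightly lower ones in Th0, by amounts inside the limits as deposited.

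The bZIP family as a whole gives the frame for these values. Of 52 measured bZIP genes, Maf had the widest range over the arrays, 4.23 log2. It was followed by Atf3, a stress-induced repressor gene, with 3.46 log2 in the opposite direction. Atf3 was 4.25-fold lower in Th17 than in Th22 and 11.0-fold lower in Th17 than in Th0. Fosb, an AP-1 gene, was 2.35-fold lower in Th17 than in Th22. No other bZIP gene passed 2-fold in any comparison as deposited, and Mafk did so for Th17 against Th22 after quantile normalization. Mafk and Bach2 ranked 7 and 8 by range. Of the other Maf and cap'n'collar factors, Mafa, Nrl, Nfe2 and Nfe2l3 were exactly equal on all 3 arrays. In centred values this cannot be told from not detected. Nfe2l1 differed by -0.18 log2 for Th17 minus Th22.

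**Figure D2:**
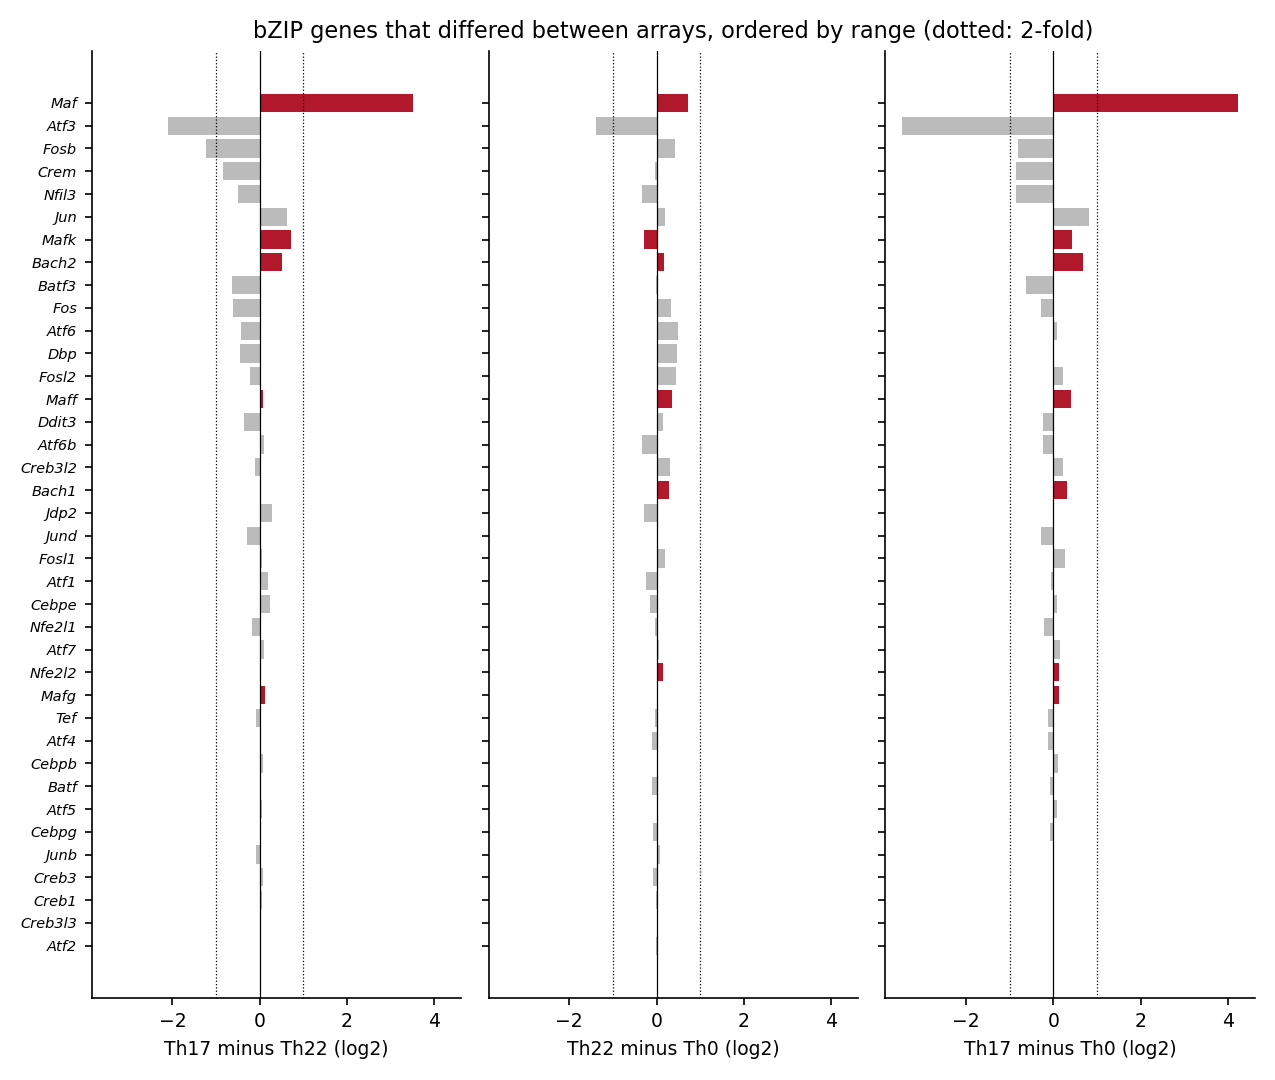
Bars give the log2 difference for each bZIP gene that differed between arrays, 1 panel per comparison on a shared axis, with genes ordered by their range and the 7 described genes in red. Maf extends to 3.51 and 4.23 in the comparisons with Th17 on top, and Atf3 to -2.09 and -3.46, while the other red bars stay within 1 log2.

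Genes with the pattern most like that of Maf were found by distance. The measure was the Euclidean distance over both differences from Th0, which covers 3 arrays and shares the Th0 array, so it describes likeness of size and nothing more. The nearest was Gcnt2, an N-acetylglucosaminyltransferase gene, at 0.20 log2 from Maf, 9.52-fold higher in Th17 than in Th22 and 1.73-fold higher in Th22 than in Th0. The next was Nipal1, a magnesium transporter gene, at 0.31 log2, 11.2-fold and 1.43-fold higher in the same comparisons. Then came Cd101 at 0.57 log2, the water channel gene Aqp3 at 0.67 log2, the chemokine gene Ccl20 at 0.75 log2 and Ldlrad4 at 0.76 log2. Lbp, which encodes a lipopolysaccharide-binding protein, at 0.79 log2 and the kinase gene Sgk1 at 0.88 log2 closed the 8. Lbp was the only one of the 8 past 2-fold for Th22 against Th0 (2.40-fold), and Ccl20 was at -0.02 log2 there. Of the 6 of these genes in the promoter table, Gcnt2 and Cd101 held the core TGACNNNGC and Aqp3 and Sgk1 the part TGCTGA.

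**Figure D3:**
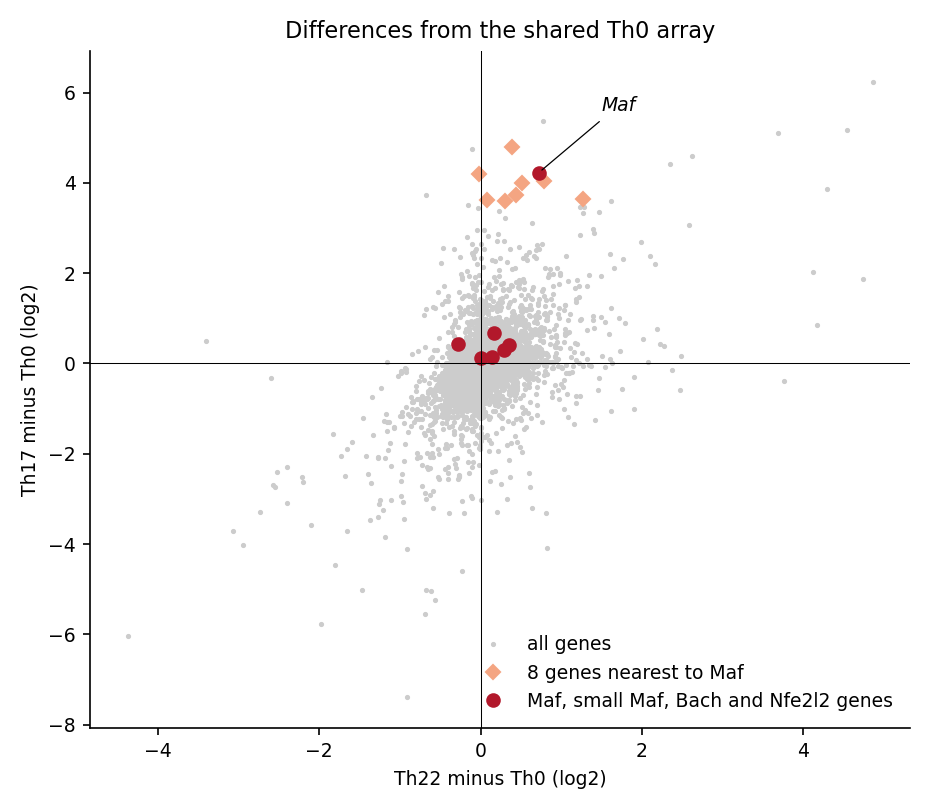
Each grey point is 1 gene, with the log2 difference of Th22 from Th0 on the horizontal axis and of Th17 from Th0 on the vertical axis. Both axes share the Th0 array, so the tilt of the cloud is not a result. Maf lies at 0.72 and 4.23 among its 8 nearest genes (diamonds), and the other 6 described genes (red) lie near the origin.

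Genes that feed into Maf expression, or act with c-Maf, differed in part in the same comparisons. The list held 15 measured members of the IL-6, IL-21, IL-27 and TGFβ signalling chains with the known partners of c-Maf. For Th17 against Th22, 4 passed 2-fold upwards and 1 downwards, beside 1.1% and 1.5% of all genes. The list's median was 0.21 log2, and the list was chosen with earlier results of these data known. Tgfbr1, a TGFβ receptor gene, was 6.61-fold higher, Il6st, which encodes the shared signalling chain gp130, 3.62-fold, Ahr, whose receptor acts with c-Maf on Il10, 3.61-fold, and Tgfbr2 2.15-fold. Sox5, which encodes a partner of c-Maf, was 2.34-fold lower in Th17 than in Th22. Sox5 was exactly equal in Th17 and Th0, which in centred values cannot be told from not detected there. Tgfbr2 was under 2-fold with both scalings, at 0.98 and 0.97 log2.

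For Th17 against Th0, 5 of the 15 were higher, namely Tgfbr1 (4.70-fold), Ahr (4.23-fold), Il6st (3.37-fold), Smad3 (2.82-fold) and Il6ra (2.19-fold). Prdm1, which encodes Blimp-1, was 2.18-fold lower, and the median was 0.59 log2. Of all genes, 1.47% were 2-fold higher in that comparison and 1.56% lower. For Th22 against Th0 only Sox5 passed 2-fold (2.34-fold higher), with a median of 0.16 log2. Of all genes, 0.547% were 2-fold higher there and 0.261% lower. After quantile normalization Tgfbr1 also passed there, at -1.33 log2. Stat3, which carries the IL-6 signal, stayed within 0.35 log2 in all 3 comparisons. Batf and Irf4, which encode factors that bind with c-Maf at many Th17 genes, stayed within 0.27 log2.

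Genes reported to be activated by c-Maf in helper T cells differed in both directions. For Th17 against Th22, 5 of the 14 analysed passed 2-fold upwards and 2 downwards, beside 1.1% and 1.5% of all genes. The other 7 did neither, and the list's median was 0.12 log2. This list too was chosen with earlier results of these data known. The higher genes were Il10 (21.1-fold), Pdpn, which encodes podoplanin (11.2-fold), Procr, which encodes the protein C receptor (8.79-fold), the follicular homing receptor gene Cxcr5 (4.54-fold) and the Th17 chemokine receptor gene Ccr6 (2.06-fold). The inhibitory receptor gene Tigit was 3.16-fold lower and the costimulatory gene Icos 2.11-fold lower. Ccr6 was under 2-fold with both scalings (0.69 and 0.85 log2) and Icos with quantile normalization (-0.86 log2).

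Il10 stood at 3.73 log2 in Th17, -0.67 log2 in Th22 and 0 in Th0, so it was lowest in Th22, unlike Maf. Quantile normalization gave Il10 -1.74 log2 for Th22 minus Th0. Il21 stood at 0.05 log2 in Th17, 0 in Th22 and -2.16 log2 in Th0, so it was as high in Th22 as in Th17, within probe error. Il4 stood at -0.41 log2 in Th17, 0 in Th22 and 2.20 log2 in Th0, the reverse of the order of Maf. These 3 cytokine genes, all reported to be activated by c-Maf, thus had 3 different orders over the cultures.

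For Th17 against Th0, 6 of the 14 passed 2-fold upwards, Il10, Pdpn, Cxcr5, Procr, Il21 and Ccr6, and 2 downwards, Il4 and Tigit, and the median was 0.63 log2. For Th22 against Th0, Il21 (4.46-fold) and Cxcr5 (2.43-fold) were higher and Il4 (4.60-fold) lower, with a median of 0.04 log2. The median over all genes was 0 in each comparison. Of all genes, 1.47% were 2-fold higher and 1.56% lower for Th17 against Th0, and 0.547% and 0.261% for Th22 against Th0. Of 2 genes listed as reported to be repressed by c-Maf, 1 was analysed as a gene, and it passed 2-fold downwards for Th17 against Th22. This gene, Il2, which encodes the T cell growth factor, was 8.58-fold lower in Th17 than in Th22, and Th22 minus Th0 was -0.21 log2. The pair of probes shared by Il22 and Iltifb was 8.40-fold and 8.21-fold lower in Th17 than in Th22, although they were 3.43-fold and 3.49-fold higher in Th17 than in Th0. Foxp3, the regulatory T cell factor gene, was 12.6-fold higher in Th17 than in Th22, beside Maf and Il10, and its part in these differences was not tested.

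Genes reported to be repressed by Bach2 in CD4 T cells were lower in part in Th17 than in Th22. Of 7 analysed, 2 passed 2-fold downwards and 0 upwards, beside 1.5% and 1.1% of all genes. The list's median was -0.41 log2, and the list was chosen with earlier results of these data known. Gata3, the Th2 factor gene, was 6.27-fold lower and Il13 2.13-fold lower. Il13 was under 2-fold with both scalings, at -0.66 and -0.89 log2. For Th17 against Th0, 5 of 7 were lower by 2-fold, beside 1.56% of all genes. These were Gata3 (22.0-fold), Il13 (16.3-fold), Il4 (6.13-fold), Il5 (3.73-fold) and Prdm1 (2.18-fold), and the list's median was -1.90 log2. For Th22 against Th0, 4 of 7 were lower by 2-fold, beside 0.261% of all genes, with a list median of -1.65 log2. There Il13 was 7.68-fold, Il4 4.60-fold, Gata3 3.50-fold and Il5 3.14-fold lower in Th22. Bach2 differed by 0.16 log2 in that comparison, inside the limit between probes, and its part in these differences was not tested. The list is largely a Th2 list, and Il4 and Prdm1 also stand on the c-Maf lists.

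**Figure D4:**
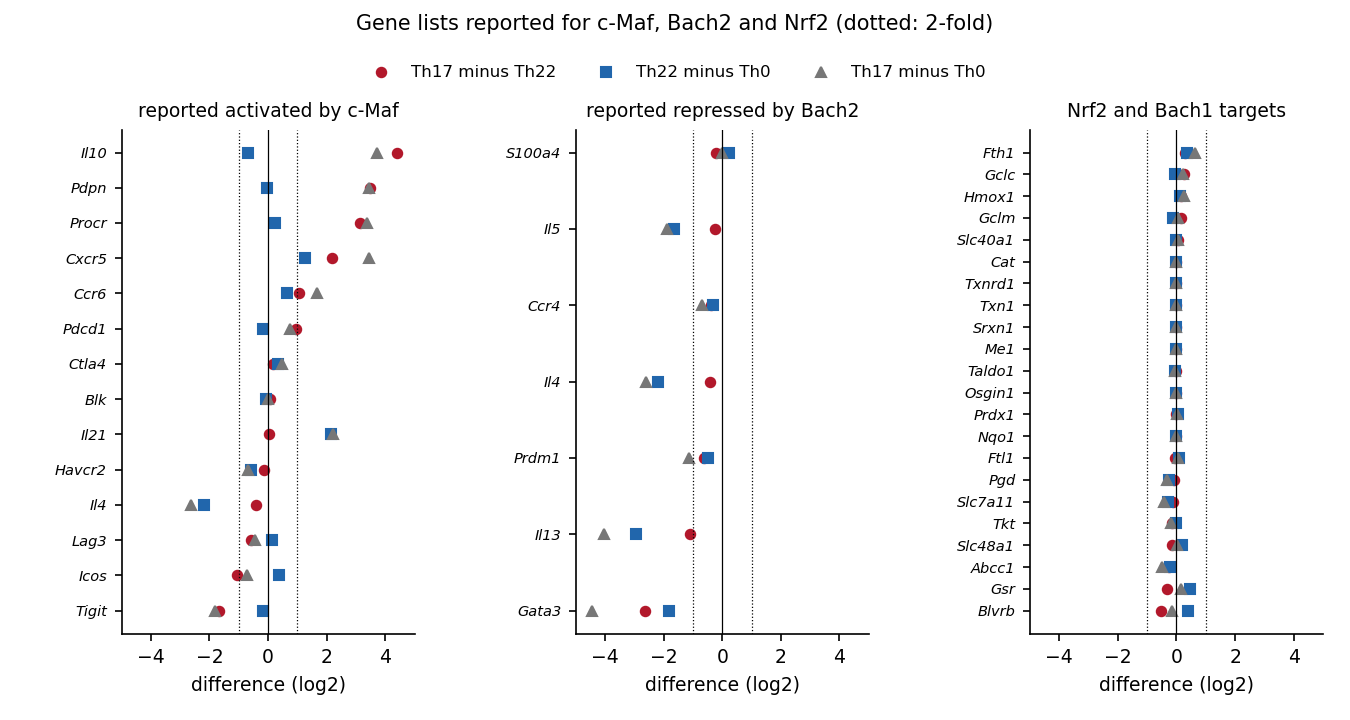
Points give the log2 difference of each measured list member, for Th17 minus Th22 (circles), Th22 minus Th0 (squares) and Th17 minus Th0 (triangles), with dotted lines at 2-fold. The c-Maf list spreads from -2.62 to 4.40, the Bach2 list reaches -4.46, and all Nrf2 and Bach1 targets stay between the dotted lines.

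Of 22 measured antioxidant and haem genes controlled by Nrf2 and Bach1, 0 passed 2-fold in any of the 3 comparisons, also with both scalings. With 1.1% of all genes higher and 1.5% lower for Th17 against Th22, a count of 0 in 22 is near the background. The shares were 1.47% and 1.56% for Th17 against Th0, and 0.547% and 0.261% for Th22 against Th0. The median was 0 in each comparison, as over all genes. Hmox1, the haem oxygenase gene that Bach1 represses, stood at 0.16 log2 in Th17, 0 in Th22 and -0.11 log2 in Th0. Fth1, the ferritin heavy chain gene, had the widest difference of the list, 0.65 log2 higher in Th17 than in Th0. Blvrb, which encodes a biliverdin reductase, differed by -0.54 log2 for Th17 minus Th22, and Gsr, the glutathione reductase gene, was 0.47 log2 higher in Th22 than in Th0. For Th17 minus Th0, Abcc1, an exporter gene, differed by -0.49 log2 and Slc7a11, the cystine transporter gene, by -0.43 log2. The glutathione synthesis genes Gclc and Gclm were 0.26 and 0.15 log2 higher in Th17 than in Th22. Nqo1 differed by -0.01 log2 for Th17 minus Th22, and Txnrd1, Srxn1, Osgin1, Txn1, Me1 and Cat were exactly equal on all 3 arrays, which in centred values cannot be told from not detected.

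The genes of the Keap1 arm, which sets the amount of Nrf2 protein, also stayed close to 0. Keap1 was exactly equal on all 3 arrays, which in centred values cannot be told from not detected. Cul3 and Rbx1, which encode parts of the ubiquitin ligase, differed by at most 0.20 log2. Sqstm1, which encodes the autophagy adaptor p62, was 0.20 log2 higher in Th17 than in Th22 and 0.21 log2 higher in Th17 than in Th0. Nrf2 is controlled mainly as a protein, which these arrays did not measure.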

How the data were processed

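Per the labels, RNA from 3 samples (Th17, Th22 and Th0) was hybridised to single-colour Affymetrix arrays, grouped by the T-helper subset named. The deposited table held 28853 probes, whose log2 values are centred on the probe's median, since each of the 28853 medians was exactly 0. The log base, summary and scaling are not given in the sources, so every fold rests on base 2 and on larger values standing for more RNA.

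Gene names came from the platform annotation and were updated by Entrez identifier with a RefSeq table of GRCm38.p6 (21698 of 21789 probes with 1 symbol matched). Another 1621 probes with several symbols and 5443 not listed stayed out, and probes of 1 gene were averaged, giving 19938 genes. Differences were counted at 2-fold, with Python 3.11.15, pandas 2.3.3 and numpy 2.4.6, and the counting was checked on simulated data. No test was possible without replicates, and precision is limited by the number of arrays.

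The 7 genes and the 15 lists were chosen with earlier results of these data known. Named genes are the 7, list members past 2-fold or needed for a statement on the 7, and the 8 genes nearest to Maf. List members without a probe of their own were not analysed here. Alternatives were other scalings, probe rules, thresholds and the natural log.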

Additional observations from a re-analysis of the deposited data

How the results depend on the processing

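No array had a replicate, so leaving out an array was not possible, and no paired analysis was possible because each group has 1 sample. No difference of the 7 genes changed sign under the 4 alternatives of scaling and probe choice. Of 21 differences of the 7 genes, 17 moved by less than the SD between probes with quantile normalization and 19 with columns scaled to the same spread. Either other probe rule left all 21 as they were, and could not do otherwise, since each of the 7 genes has 1 probe. Maf moved from its deposited values to 2.81 and 2.87 log2 for Th17 against Th22 and to 3.54 and 3.61 log2 for Th17 against Th0, with quantile normalization and with scaled columns. The number of the 7 genes past the threshold became 2 for Th17 against Th22 with quantile normalization, with the natural log and at 1.5-fold. It became 1 for Th22 against Th0 with the natural log and at 1.5-fold, and 2 for Th17 against Th0 at 1.5-fold. With the natural log, Maf would be 33.3-fold higher in Th17 than in Th22. All genes past the threshold numbered 1093 at 1.5-fold, 244 at 3-fold and 859 with the natural log for Th17 against Th22, where 520 passed as reported. For Th22 against Th0 they numbered 308 with quantile normalization, which forces equal spread, 480 at 1.5-fold, 59 at 3-fold and 343 with the natural log, where 161 passed as reported. For Th17 against Th0 they numbered 1260, 290 and 1021 in the first order, where 604 passed as reported. Signal over background is unknown from centred values.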

Other observations

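The deposited numbers fall on a finer and a coarser numerical step. Single-precision storage gives smaller logarithms a finer step, but how these numbers were stored is not given in the files. Of the non-zero values of receptor genes for smell and taste, which T cells are not known for, 45.9% fell on the finer step, against 0% of 245 values of ribosomal protein genes and 14.9% over all genes. Of the 13 non-zero values of Maf, Maff, Mafg, Mafk, Bach1, Bach2 and Nfe2l2, 0 fell on the finer step, 12 on the coarser step and 1 on neither. These gene groups were chosen after the values were seen, a value from a dim probe can also fall on the coarser step, and no level can be read for a single gene.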
